A study of Mus musculus with 12 samples.

Results

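The MHC class II antigen presentation genes analysed here were H2-Aa, H2-Ab1, H2-Eb1, Cd74, H2-DMa, H2-DMb1 and Ciita, chosen by gene name as the class II chains, the invariant chain, the peptide exchange factor and the transactivator. They are 7 of the 55385 features of the liver RNA-Seq table, and all 7 were among the 16378 features with a mean of at least 1 TPM (transcripts per 1000000) that were tested. The 12 libraries came from male C57BL/6 mice, 7 weeks old, whose livers were taken on day 7 after an injection of adenovirus at a total of 500000000 plaque-forming units (pfu) per mouse. In the 4 Ad-Ctrl mice the virus was Lac plus pAdV5. The 4 Ad-shmGULL mice received an shRNA virus against mGULL, a mouse liver long noncoding RNA, together with pAdV5 (knockdown). In the 4 Ad-shmGULL+hGULL mice the shRNA virus was combined with a virus for the human lncRNA hGULL (rescue). Every mouse therefore carried adenovirus, no uninjected mouse was analysed, which shRNA was used is not given in the sources used here, and the injection is called intravitreal in one place of the sources and retro-orbital in another. The level of mGULL itself was not analysed here.

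Class II molecules are pairs of an alpha and a beta chain that display peptides from ingested protein to CD4 T cells. In the cell, the invariant chain (Cd74) fills the peptide groove and guides the pair to the endosome, proteases cut it down to a short stub, and the DM pair (H2-DMa and H2-DMb1) swaps that stub for an antigenic peptide. The genes are transcribed together in dendritic cells, B cells and activated macrophages, under the control of Ciita, which binds no DNA itself and is recruited by RFX, CREB and NF-Y factors bound to X and Y boxes upstream of each gene. In liver, Kupffer cells, dendritic cells and B cells are the usual carriers of class II, and hepatocytes normally have little.

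RefSeq promoter sequences (GRCm38.p6, the build of the files) were matched for 4 of the 7 genes, H2-Aa, H2-Eb1, H2-DMa and H2-DMb1. The 120 bases upstream of the listed start are shown for the 3 genes that held both an X-box match (TNGNAACT) and a Y-box match (TGATTGG). Capitals mark the X match and then the Y match, and each line reads 5′ to 3′ on the gene's strand.
H2-Aa: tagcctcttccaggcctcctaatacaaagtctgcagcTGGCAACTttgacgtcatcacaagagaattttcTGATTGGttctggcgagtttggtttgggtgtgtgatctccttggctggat
H2-DMb1: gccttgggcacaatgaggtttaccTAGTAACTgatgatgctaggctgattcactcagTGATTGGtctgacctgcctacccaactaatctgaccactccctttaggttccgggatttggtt
H2-Eb1: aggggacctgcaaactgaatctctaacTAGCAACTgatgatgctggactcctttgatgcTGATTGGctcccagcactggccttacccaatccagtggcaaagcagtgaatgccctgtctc

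The windows are chr17:34287824-34287943 on the minus strand for H2-Aa, and on the plus strand chr17:34153071-34153190 for H2-DMb1 and chr17:34305747-34305866 for H2-Eb1. The X match began 83, 96 and 93 bases before the start of H2-Aa, H2-DMb1 and H2-Eb1, and the Y match followed 33, 33 and 32 bases later. In H2-Aa the letters TGACGTCA, the CRE that CREB factors bind, stood at base 74 before the start and are the same on both strands. The letters were chosen after these promoters had been read. Over the 250 bases upstream of 32851 listed promoters, searched on both strands, 10.6% held the X letters, 7.23% the Y letters and 1.55% the CRE. An X match followed by a Y match on 1 strand, with starts 20 to 45 bases apart, was found in 0.0335% (11 promoters), and 3 of these 11 were H2-Aa, H2-DMb1 and H2-Eb1. The match is a description of letters. Neither of the 2 listed starts of H2-DMa had the pair, and H2-Ab1, Cd74 and Ciita were not matched.

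H2-Aa, H2-Ab1, H2-Eb1, H2-DMa and H2-DMb1 lie in the MHC on chromosome 17 (GRCm38.p6), whereas Cd74 is on chromosome 18 and Ciita on chromosome 16. H2-DMa spans chr17:34119693-34139101, H2-DMb1 chr17:34153191-34160229, H2-Ab1 chr17:34263227-34269418, H2-Aa chr17:34282744-34287823 and H2-Eb1 chr17:34305867-34316674. Cd74 spans chr18:60803849-60812652 and Ciita chr16:10480014-10531064.

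Each library summed to 1000000 TPM, so depth per mouse is unknown, and between 15525 and 16929 features were above 1 TPM in a mouse. As a check of the tissue, all 7 hepatocyte markers (Alb, Apoa1, Ttr, Cyp2e1, Tat, Serpina1a and Hnf4a) were found, with a sum of 69930 to 113700 TPM per mouse. Ad-Ctrl replicate 1 stood apart from the other 3 control mice for the class II genes. It was the highest of the 12 mice for 6 of the 7, all but Ciita, where it ranked 4, and its values were 1.90 to 3.88 times the mean of the other control mice. The tests of the 7 genes against control, their correlations and the marker sums are therefore given with all 12 mice and without this mouse. Other results below use all 12 mice unless stated otherwise. In whole liver, fewer class II positive cells and less class II RNA per cell cannot be told apart.

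The 7 transcripts kept nearly the same order of level in every mouse. TPM is per length, so genes can be compared on it. Cd74 was the most abundant, with a mean of 569.6 TPM over the 12 mice, which ranked 192 in the table. H2-Eb1 followed with 129 TPM, H2-Ab1 with 94.1, H2-Aa with 77.3, H2-DMb1 with 18.1, H2-DMa with 14.9 and Ciita with 7.83. The order held in 12 of 12 mice at each step but one. H2-DMb1 was above H2-DMa in 10 of 12 mice, and the ratio of these neighbours ran from 0.962 to 1.52, so the DM chains could not be ordered. Cd74 exceeded H2-Eb1 by 3.76 to 4.99 times, and its share of the summed TPM of the 7 genes lay between 57.7% and 66.0% in every mouse.

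The alpha and beta chains of the I-A molecule had the following values. H2-Aa, the I-A alpha chain, measured 121, 35.9, 38.8 and 59.1 TPM in Ad-Ctrl replicates 1 to 4, 57.8, 114, 93.2 and 73.0 TPM in the Ad-shmGULL mice, and 78.5, 103, 83.8 and 68.9 TPM in the Ad-shmGULL+hGULL mice. The control group held both the highest and the lowest mouse, and its range covered the other groups. The group means were 63.7 ± 39.5, 84.6 ± 24.6 and 83.7 ± 14.6 TPM (SD, n = 4). The log2 fold change was 0.53 for knockdown minus control (95% confidence interval -0.17 to 1.24, limma adjusted p = 0.389) and 0.55 for rescue minus control (-0.16 to 1.25, limma adjusted p = 0.304). Neither passed the test, and rescue minus knockdown was 0.01 (-0.69 to 0.72, limma adjusted p = 0.989).

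H2-Ab1, the I-A beta chain, measured 169, 48.2, 45.4 and 72.3 TPM in the control mice, 66.6, 116, 109 and 83.6 TPM in the knockdown mice, and 96.4, 130.4, 105 and 87.6 TPM in the rescue mice. The groups overlapped, and Ad-Ctrl replicate 1 was above all 8 mice given the shRNA. The log2 fold changes were 0.34 for knockdown minus control (SE 0.34, limma adjusted p = 0.624), 0.52 for rescue minus control (limma adjusted p = 0.349) and 0.18 for rescue minus knockdown (limma adjusted p = 0.86).

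H2-Eb1 encodes the beta chain of I-E. C57BL/6 mice carry an H2-E alpha gene that is not transcribed, so they make this RNA without its partner chain. H2-Ea-ps, the name of that gene in the table, was listed at 0 in 11 of 12 mice and at 0.259 TPM in Ad-shmGULL replicate 3. H2-Eb1 measured 252, 63.5, 56.9 and 92.7 TPM in the control mice, 110.4, 164, 165 and 111 TPM in the knockdown mice, and 124, 169, 142 and 102 TPM in the rescue mice. All 8 shRNA mice were above 3 of the 4 control mice and below the fourth. The log2 fold changes of 0.48 for knockdown minus control (limma adjusted p = 0.509), 0.45 for rescue minus control (limma adjusted p = 0.455) and -0.03 for rescue minus knockdown (limma adjusted p = 0.981) did not pass the test.

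Cd74, the invariant chain, varied most, with a coefficient of variation of 45.9% over the 12 mice. It measured 1172, 239, 245 and 422 TPM in the control mice, 436, 816, 716 and 488 TPM in the knockdown mice, and 536, 745, 567 and 454 TPM in the rescue mice. The control mice spanned 4.91-fold, against 1.87-fold in the knockdown group and 1.64-fold in the rescue group. The differences were 0.53 (95% confidence interval -0.38 to 1.43, limma adjusted p = 0.525) for knockdown minus control and 0.46 (-0.45 to 1.36, limma adjusted p = 0.504) for rescue minus control on the log2 scale. For rescue minus knockdown the value was -0.07 (-0.98 to 0.84, limma adjusted p = 0.957).

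The DM chains were less abundant, with H2-Aa at 2.64 to 5.43 times the level of H2-DMb1. H2-DMa measured 26.3, 8.93, 8.05 and 13.3 TPM in the control mice, 8.85, 16.8, 17.9 and 13.9 TPM in the knockdown mice, and 14.6, 18.4, 17.3 and 14.8 TPM in the rescue mice. H2-DMb1 measured 25.3, 13.6, 9.85 and 13.2 TPM in the control mice, 10.6, 23.2, 22.8 and 15.0 TPM in the knockdown mice, and 18.3, 24.4, 21.4 and 19.2 TPM in the rescue mice. Both had 1 high control mouse and 1 low knockdown mouse, replicate 1 of either group, while the 4 rescue mice lay close together, with a coefficient of variation of 11.5% for H2-DMa and 13.0% for H2-DMb1. For H2-DMa the log2 fold changes were 0.12 (knockdown minus control), 0.33 (rescue minus control) and 0.21 (rescue minus knockdown), and the limma adjusted p values were 0.866, 0.507 and 0.81. For H2-DMb1 they were 0.21, 0.48 and 0.27, with limma adjusted p values of 0.717, 0.282 and 0.717.

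Ciita, the transactivator on which the other 6 genes depend in professional antigen-presenting cells, measured 9.88, 4.98, 5.05 and 5.60 TPM in the control mice. In the knockdown mice it measured 4.20, 9.93, 9.60 and 6.58 TPM, and in the rescue mice 10.3, 10.7, 9.60 and 7.62 TPM. Ad-Ctrl replicates 2 to 4 were between 4.98 and 5.60 TPM, below every rescue mouse, and 2 rescue mice were above all 4 control mice. Rescue minus control was 0.55 on the log2 scale (95% confidence interval 0.02 to 1.09, unadjusted P = 0.0433 in limma), but the adjusted p was 0.184 in limma and the exact two-sided permutation test of these 8 mice gave p = 0.0857. Knockdown minus control was 0.20 (limma adjusted p = 0.701) and rescue minus knockdown 0.35 (limma adjusted p = 0.61).

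**Figure D1:**
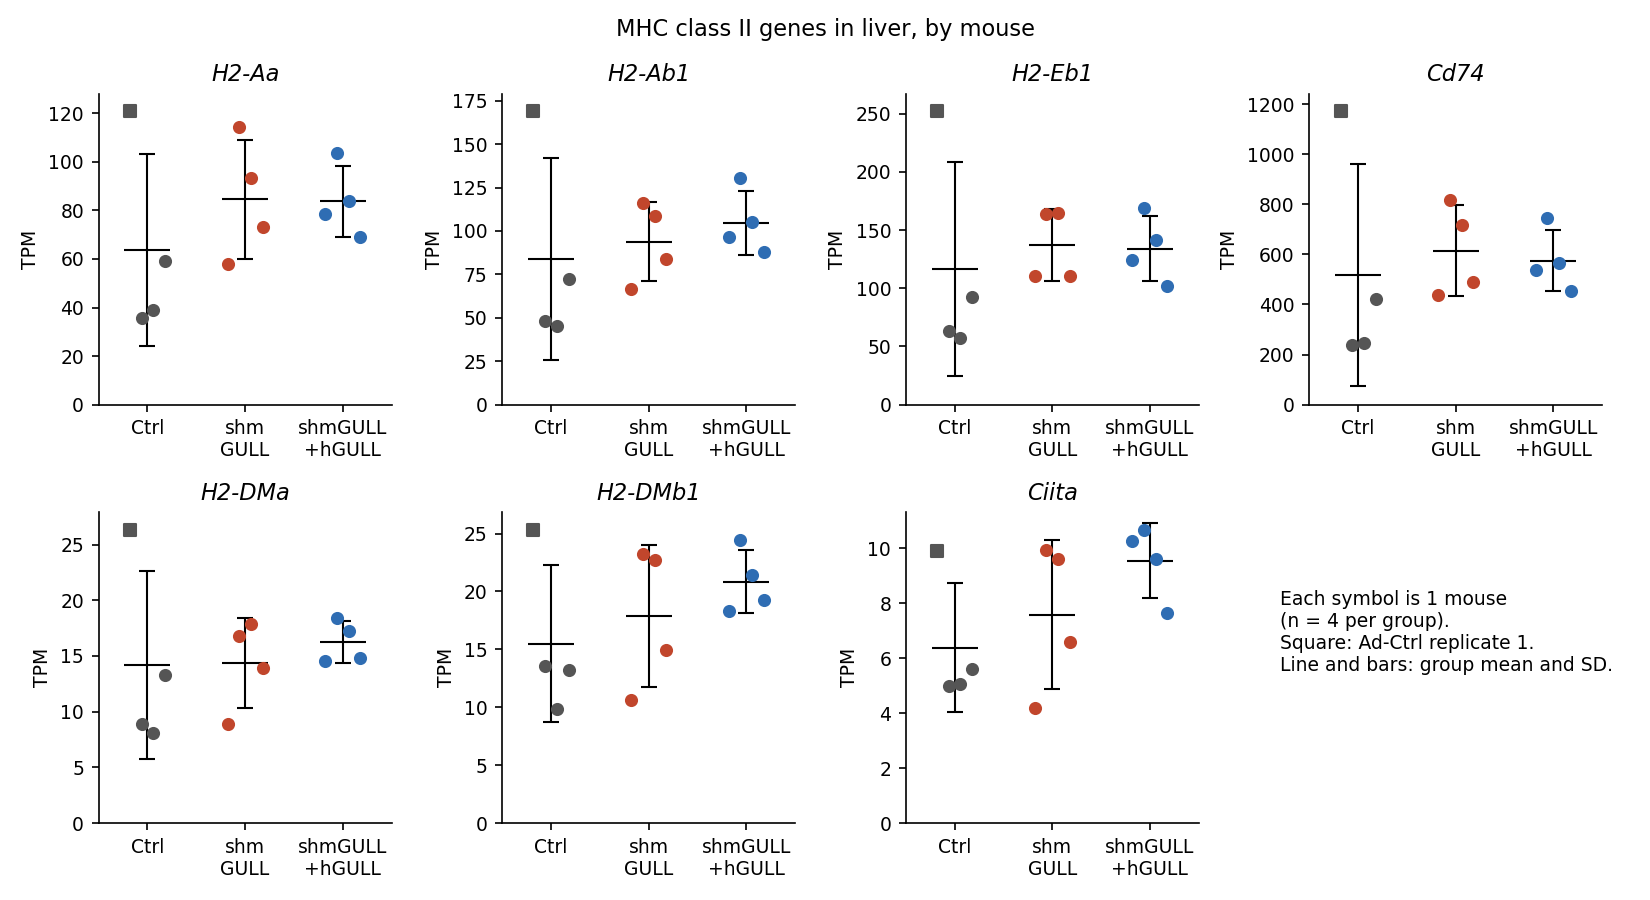
TPM (linear axis from 0) of the 7 class II genes in each of the 12 mice, with the mean and SD of each group (n = 4). The square is Ad-Ctrl replicate 1, the highest mouse for every gene but Ciita, while the other control mice lie at the bottom of each panel together with Ad-shmGULL replicate 1 for H2-Aa, H2-Ab1, the DM genes and Ciita.

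With all 12 mice, then, 0 of the 7 class II genes passed an adjusted p of 0.05 in any comparison by limma. At the same threshold 3.23% of all tested genes passed in knockdown minus control, 2.15% in rescue minus control and 0% in rescue minus knockdown. At the study's own threshold, a log2 fold change beyond 0.5 with unadjusted P under 0.05, the count was 0 of 7 for knockdown minus control (7.65% of all genes), 1 of 7 for rescue minus control (Ciita, 7.49% of all genes) and 0 of 7 for rescue minus knockdown (3% of all genes). Only Ciita in rescue minus control had an unadjusted P under 0.05 in limma, which 25.3% of all genes had in that comparison, 20.2% in knockdown minus control and 10.7% in rescue minus knockdown. All 7 genes had a positive log2 fold change in knockdown minus control, with a median of 0.34 beside 0.09 over all tested genes, and in rescue minus control, with a median of 0.48 beside 0.17. These comparisons share the control mice. In rescue minus knockdown, 5 genes were positive and 2 negative, with a median of 0.18 beside 0.09. After median-of-ratios scaling, which moved the median of all genes in rescue minus control from 0.17 to -0.003, the 7 genes were still all positive in both comparisons with control, with medians of 0.24 and 0.29, and 4 were positive in rescue minus knockdown.

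Without Ad-Ctrl replicate 1, 3 of the 7 genes passed the test in each comparison with control, H2-Aa, H2-Eb1 and Cd74 after knockdown and H2-Aa, H2-Ab1 and H2-Eb1 after rescue. This mouse was singled out for its high values of the same genes, so the p values without it are a description and not an independent test. In knockdown minus control, H2-Aa rose by 0.90 on the log2 scale (limma adjusted p = 0.0468), H2-Eb1 by 0.95 (limma adjusted p = 0.0316) and Cd74 by 1.03 (limma adjusted p = 0.0436). The exact two-sided permutation test of these mice gave p = 0.0857 for H2-Aa, 0.0286 for H2-Eb1 and 0.0571 for Cd74. H2-Ab1, at 0.75, did not pass (limma adjusted p = 0.0629), and neither did H2-DMa, H2-DMb1 or Ciita, whose values were 0.45, 0.46 and 0.41. In rescue minus control, H2-Aa rose by 0.91 (limma adjusted p = 0.0423), H2-Ab1 by 0.93 (limma adjusted p = 0.0323) and H2-Eb1 by 0.92 (limma adjusted p = 0.0347), whereas Cd74 at 0.96 did not pass (limma adjusted p = 0.0508). H2-DMa, H2-DMb1 and Ciita, at 0.66, 0.73 and 0.76, did not pass either (limma adjusted p = 0.0849, 0.0761 and 0.0649). These counts of 3 of 7 stand beside 5.78% of all tested genes in knockdown minus control and 6.52% in rescue minus control.

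All 4 rescue mice were above the other 3 control mice for each of the 7 genes. Groups lay apart in this direction for 35% of all tested genes in that comparison. All 4 knockdown mice were above the 3 control mice for H2-Eb1 and Cd74, and 3 of 4 for the other 5 genes, where Ad-shmGULL replicate 1 fell among the controls or, for Ciita, below them (14.8% of all genes lay apart upward). At the study's threshold the counts were 4 of 7 genes in knockdown minus control (10.1% of all genes) and 7 of 7 in rescue minus control (10.3%). When the TPM were also rescaled by the median of ratios, 1 gene, H2-Eb1, passed the adjusted threshold in knockdown minus control and 0 passed in rescue minus control. Of the 12 mice left out in turn, only Ad-Ctrl replicate 1 gave any call among the 7 genes.

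**Figure D2:**
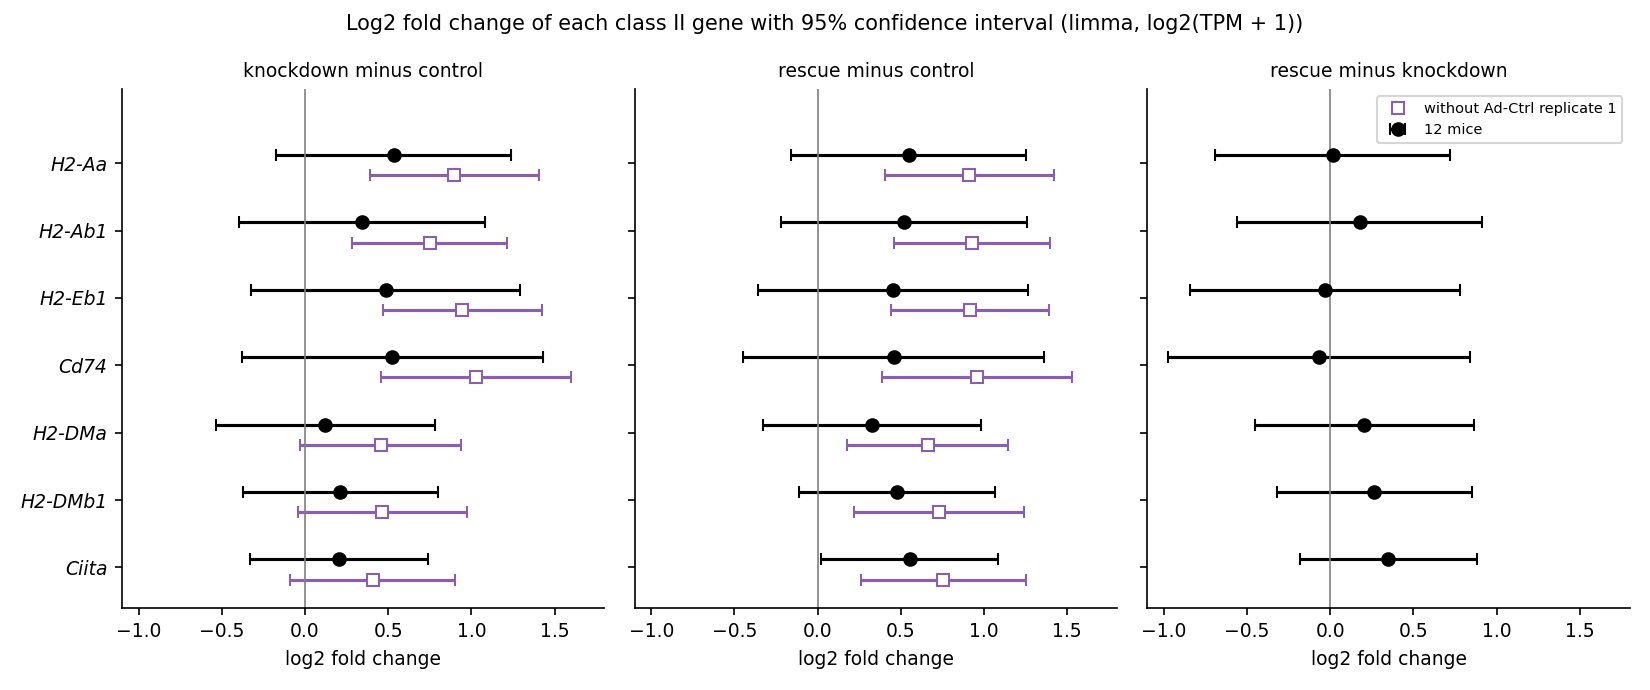
Log2 fold change of each class II gene with its 95% confidence interval from limma on log2(TPM + 1), with all 12 mice (black) and without Ad-Ctrl replicate 1 (open squares, not drawn for rescue minus knockdown, which does not use that mouse). With all mice, only the interval of Ciita in rescue minus control (0.02 to 1.09) lies above 0, and without that mouse the intervals of the 7 genes in rescue minus control all do.

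Markers of many cell types were also high in Ad-Ctrl replicate 1. Its summed TPM was above that of the other 3 control mice for 10 of the 12 marker lists, all but those of hepatocytes (83530 against 78760 to 113700 TPM) and Kupffer cells (1266 against 785 to 1310 TPM). The sum of 3 leukocyte markers (Ptprc, Coro1a and Laptm5) was 113 TPM in that mouse and 54.3 to 77.6 TPM in the other control mice. The 7 T cell markers summed to 34.0 TPM against 8.37 to 17.8 TPM, the 5 natural killer cell markers to 41.4 against 16.9 to 18.6 TPM, the 9 dendritic cell markers to 35.2 against 22.8 to 26.4 TPM and the 9 B cell markers to 34.7 against 16.7 to 23.3 TPM. The monocyte and recruited macrophage markers stood at 238 against 175 to 196 TPM and the neutrophil markers at 234 against 100.5 to 204 TPM. Cells outside the immune system showed it too, with 129 against 69.0 to 100.1 TPM for stellate cells, 187 against 108 to 167 TPM for sinusoidal endothelial cells and 11.6 against 6.07 to 9.07 TPM for cholangiocytes. Of the markers in the 12 lists, Klrb1c and Cd209a were at 0 in 1 mouse each (Ad-shmGULL replicate 4 and Ad-Ctrl replicate 4), as was Ly6g (Ad-shmGULL+hGULL replicate 4), and all the others were above 0 in every mouse. This mouse was the highest of all 12 for 5 of 6 tested T cell markers and 3 of 3 leukocyte markers, beside 9.95% of all tested genes. It was so for 2 of 3 natural killer cell, 3 of 7 monocyte, 2 of 6 dendritic cell and 2 of 11 Kupffer cell markers. For stellate cells and cholangiocytes it was 1 of 5 and 1 of 3. No tested marker of B cells, sinusoidal endothelial cells, neutrophils or hepatocytes was highest in this mouse. The part of these cells in the class II values was not tested.

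With all 12 mice, the marker sums of the control group overlapped those of the knockdown and rescue groups for 12 of 12 lists. The leukocyte sum was 54.3 to 113 TPM in the control group, 53.8 to 88.3 TPM in the knockdown group and 69.6 to 87.1 TPM in the rescue group. Without Ad-Ctrl replicate 1, some marker sums lay apart from the controls and others did not. The T cell, leukocyte, Kupffer cell, neutrophil and hepatocyte sums of both groups overlapped those of the other 3 controls. Single genes lay apart upward for 35% of all tested genes in rescue minus control and 14.8% in knockdown minus control. The rescue group then lay above the remaining controls for 5 of 12 lists, namely dendritic cells (27.8 to 31.6 against 22.8 to 26.4 TPM), natural killer cells (19.7 to 26.0 against 16.9 to 18.6 TPM), monocytes (204 to 219 against 175 to 196 TPM), sinusoidal endothelial cells (172 to 206 against 108 to 167 TPM) and cholangiocytes (9.29 to 12.4 against 6.07 to 9.07 TPM). Such a sum is led by its most abundant markers. For natural killer cells, Nkg7 measured 12.7 to 20.4 TPM in the rescue mice and 9.44 to 12.4 TPM in these 3 controls. Ncr1 was lower in every rescue mouse than in any control mouse (means 0.862 and 1.48 TPM). Of the 3 tested natural killer cell markers, 1 was higher and 2 were lower in rescue minus control with all 12 mice. The knockdown group lay above these 3 controls for 4 lists, namely B cells (27.5 to 54.3 against 16.7 to 23.3 TPM), monocytes (198 to 249 TPM), sinusoidal endothelial cells (179 to 234 TPM) and stellate cells (102 to 133 against 69.0 to 100.1 TPM). Most of the monocyte sum was Lyz2, at 161 to 171 TPM in the knockdown mice and 127 to 138 TPM in these 3 controls. Of the 7 tested monocyte markers, 3 were higher and 4 were lower in knockdown minus control with all 12 mice. With all 12 mice, no tested marker of B cells, T cells, dendritic cells, Kupffer cells or monocytes passed an adjusted p of 0.05 in limma in any comparison. Stab2, a scavenger receptor of sinusoidal endothelial cells, was the marker that did, with means of 34.9 TPM in the control group and 50.9 TPM in the knockdown group (log2 fold change 0.54, limma adjusted p = 0.0476). Whether these cells carried the class II RNA was not tested.

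The 7 class II genes varied together from mouse to mouse. Over the 12 mice, Pearson's r between the log2 values of any 2 of them lay between 0.784 and 0.99 over 21 pairs, with a median of 0.919. It lay between 0.816 and 0.995 after the group means were taken off, and between 0.797 and 0.992 without Ad-Ctrl replicate 1. These are descriptions of 12 mice that share library and depth between genes. The genes most like the mean of the 7 in pattern were Hk1 (r = 0.985), Cotl1 (0.974), Flna (0.972), Vim (0.971), Tagln2 (0.971), Arhgap30 (0.971), Cd3e (0.962), Neil3 (0.961), Myo1f (0.956) and Clic1 (0.955). Vim and Flna encode cytoskeletal proteins, Hk1 a hexokinase and Cd3e a chain of the T cell receptor complex. After the group means were taken off, Flna (0.989), Hk1 (0.987) and Anxa2 (0.976) led, and Tagln2, Myo1f, Vim, Arhgap30 and Cotl1 were again among the first 10, with Pstpip1 and Hcls1.

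In the same measure the median r over all 16378 tested genes was 0.362. The 6 tested T cell markers had a median of 0.877 (0.684 to 0.962) and the 3 leukocyte markers one of 0.842, the value of Ptprc, the pan-leukocyte antigen. Dendritic cell markers had a median of 0.459 (-0.283 to 0.894) and B cell markers 0.441 (0.105 to 0.724), nearer to that of all genes. Medians were 0.68 for monocytes, 0.668 for sinusoidal endothelial cells, 0.613 for stellate cells and 0.587 for natural killer cells. For cholangiocytes and neutrophils they were 0.408 and 0.003. The 11 Kupffer cell markers were divided, with 6 above 0.5, led by Adgre1 (0.811), and 5 below 0, with Cd163 lowest (-0.569), and all 7 hepatocyte markers were below 0. Genes of antigen presentation and of the interferon-gamma response were also of several kinds. Ifi30 had an r of 0.931 and the class I genes H2-D1 and H2-K1 0.845 and 0.638, whereas Irf1, a transcription factor that interferon-gamma induces, had an r of 0.234, Socs1 0.133 and Nlrc5, the transactivator of class I, 0.113. The 10 class I genes together had a median of 0.327, and the 15 genes that control class II transcription 0.511.

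**Figure D3:**
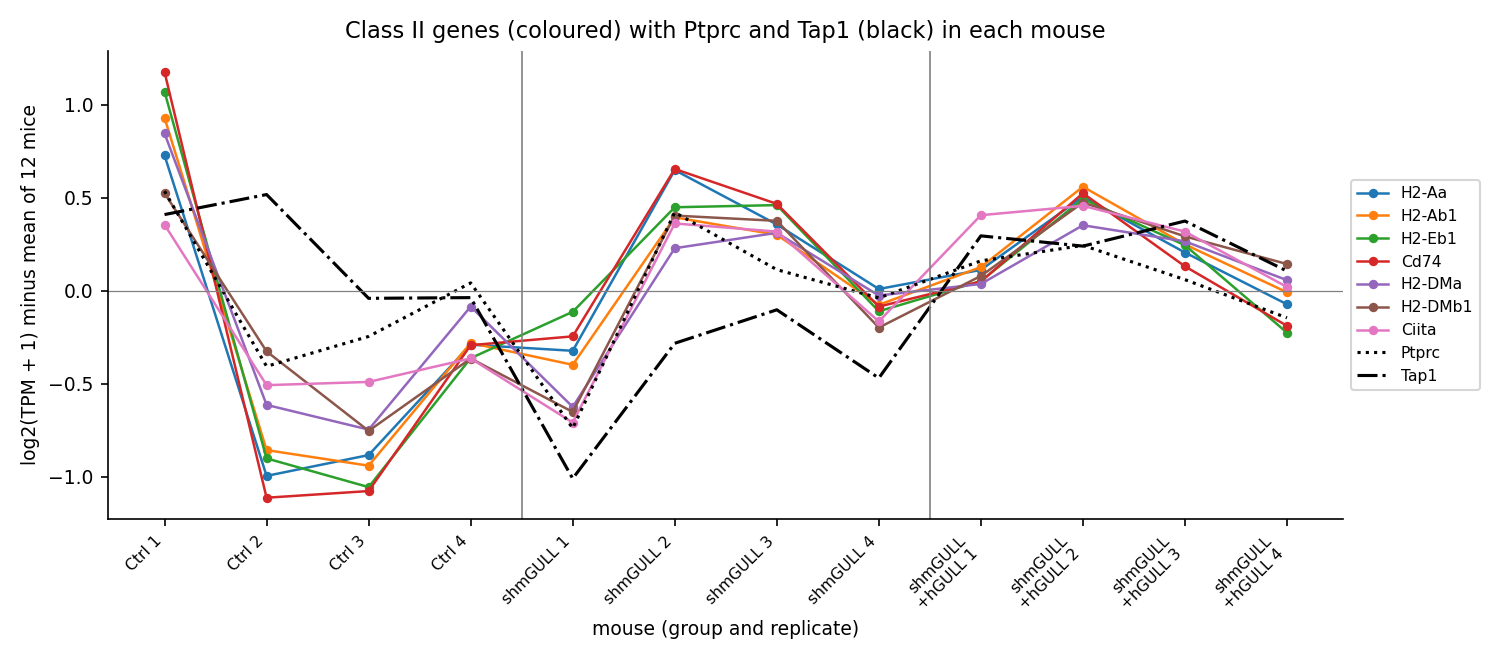
Log2(TPM + 1) of each class II gene (coloured lines) minus its mean over the 12 mice, with Ptprc and Tap1 in black, and vertical lines between the groups. The 7 coloured lines run together, 6 of them highest in Ad-Ctrl replicate 1. Tap1 is lowest in Ad-shmGULL replicate 1 and lies below its mean in all 4 knockdown mice and, slightly, in Ad-Ctrl replicates 3 and 4.

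Ratios between the chains were then compared within each mouse. The ratio of H2-Ab1 to H2-Aa was 1.40, 1.34, 1.17 and 1.22 in the control mice, 1.15, 1.02, 1.17 and 1.14 in the knockdown mice, and 1.23, 1.26, 1.25 and 1.27 in the rescue mice. Every knockdown mouse was below every rescue mouse and, by less than the rounding, below every control mouse. For H2-Aa over H2-Ab1 the group means were 0.895 (knockdown), 0.798 (rescue) and 0.783 (control), and the exact permutation p was 0.0286 against either other group, which became 0.2 when adjusted over the 63 ratios compared. The ratio of Cd74 to H2-Ab1 was 5.84 to 7.02 in the knockdown mice, above the 5.18 to 5.72 of the rescue mice, while the control mice (4.95 to 6.93) overlapped both.

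Of the 21 ratios between 2 class II genes, groups lay apart for 2 in knockdown minus control, 7 in rescue minus knockdown and 0 in rescue minus control. For the ratio of any tested gene to H2-Aa the shares were 1.56%, 2.16% and 1.44% in the same order, and to H2-Ab1 0.837%, 1.51% and 0.959%. These shares are not a like measure for the 21 ratios. They cover genes of any pattern, whereas the class II genes vary together, and no share was worked out for ratios to H2-Eb1, Cd74, the DM chains or Ciita. The counts are therefore not read as a result about the class II genes. The 21 ratios share genes and are not independent. In the 7, Ciita stood higher in the rescue mice relative to H2-Aa, H2-Eb1 and Cd74, and H2-DMb1 higher relative to H2-Eb1 and Cd74. Cd74 over Ciita averaged 83.7 in the knockdown group and 60.1 in the rescue group (exact p = 0.0286, 0.2 adjusted over the 63 ratios).

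Ciita was also set against Ptprc, a ratio chosen after its values had been seen. It was 0.572, 0.586, 0.525 and 0.468 in the control mice, 0.642, 0.625, 0.760 and 0.584 in the knockdown mice, and 0.785, 0.767, 0.791 and 0.734 in the rescue mice. The rescue mice were above all control mice, and here Ad-Ctrl replicate 1 was within the range of its group. The ratio to Ptprc lay apart between rescue and control for 6.08% of all tested genes. The ratio of H2-Ab1 to Ptprc overlapped between the groups, at 4.72 to 9.79 in the control, 7.32 to 10.2 in the knockdown and 7.37 to 9.37 in the rescue mice.

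**Figure D4:**
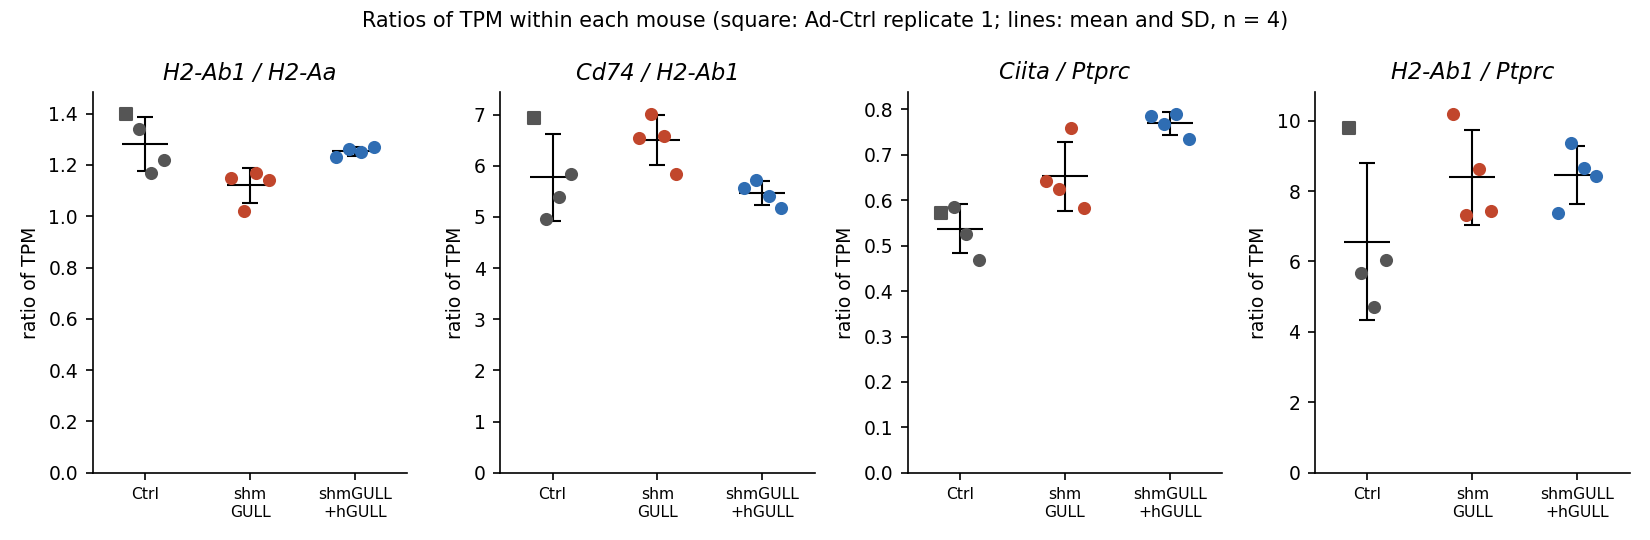
Ratios of TPM within each mouse (linear axes from 0), with the mean and SD of each group (n = 4) and Ad-Ctrl replicate 1 as a square. H2-Ab1 over H2-Aa is 1.02 to 1.17 in the knockdown mice and 1.23 to 1.27 in the rescue mice, and Ciita over Ptprc is 0.468 to 0.586 in the control mice and 0.734 to 0.791 in the rescue mice.

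Other genes of the class II pathway did not pass the test with all mice. Of the 16 partner genes found (proteases, the thiol reductase Ifi30, DO and DM chains and co-stimulators), 12 were tested, and of the 16 genes that control class II transcription 15 were tested. None of these 27 had an adjusted p under 0.05 in any comparison. Among the partners, 6 were higher and 6 lower in knockdown minus control, with a median log2 fold change of 0.01 beside 0.09 over all genes, and 7 were higher and 5 lower in both rescue minus knockdown and rescue minus control, with medians of 0.01 and 0.11 beside 0.09 and 0.17, which turned to 5 higher and 7 lower in both after median-of-ratios scaling. Ifi30 reduces disulfide bonds of antigens in the endosome. Without Ad-Ctrl replicate 1 it rose in rescue minus control by 0.73 on the log2 scale (limma adjusted p = 0.037). It was the only partner to pass there, beside 6.52% of all tested genes. With median-of-ratios scaling added, Ifi30 did not pass.

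Sppl2a, the protease that clears the last stub of the invariant chain, measured 88.6, 94.4, 121 and 92.9 TPM in the control mice and 54.8, 89.9, 78.0 and 78.8 TPM in the knockdown mice. Of the 4 knockdown mice, 3 were below all controls (log2 fold change -0.41, limma adjusted p = 0.123). Cd83, which stabilises class II at the surface of dendritic cells, averaged 2.09 ± 0.25 TPM in the control group and 3.64 ± 1.73 TPM (SD, n = 4) in the knockdown group, a difference of 0.51 on the log2 scale (limma adjusted p = 0.255). The low expressed DO chains, which oppose DM, were below the filter, with 0.332 to 1.04 TPM of H2-Oa in the control mice and 0.431 to 1.69 TPM in the knockdown mice.

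Among the genes that control class II transcription, 8 were higher and 7 lower in knockdown minus control, and 15 of 15 were higher in rescue minus knockdown (median 0.17 beside 0.09) and in rescue minus control (median 0.21 beside 0.17), but 12 of 15 and 8 of 15 after median-of-ratios scaling. Socs1, which is induced by interferon-gamma signalling and inhibits it, measured 4.83, 5.41, 5.14 and 2.91 TPM in the control mice, 1.56, 2.58, 4.89 and 2.05 TPM in the knockdown mice and 5.01, 4.19, 5.64 and 3.84 TPM in the rescue mice. Of the 4 knockdown mice, 3 lay below all controls. Its log2 fold changes were -0.61 for knockdown minus control, 0.65 for rescue minus knockdown and 0.04 for rescue minus control (limma adjusted p = 0.177, 0.404 and 0.928). At the study's threshold, 1 of the 15 was lower in knockdown minus control (Socs1) and 2 were higher in rescue minus knockdown (Irf1 and Socs1), beside 2.3% of all genes lower and 2.33% higher in these comparisons.

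The factors that bind the X and Y boxes printed above were named after their values had been seen. Rfxank, a subunit of RFX, averaged 10.8 TPM in the control group and 14.2 TPM in the rescue group (log2 fold change 0.37, limma adjusted p = 0.0754). Nfyb and Nfyc, subunits of NF-Y, had differences of 0.32 and 0.32 (limma adjusted p = 0.0841 and 0.0968). After median-of-ratios scaling the differences were 0.18, 0.13 and 0.12 (limma adjusted p = 0.425, 0.519 and 0.534). On the deposited scale all rescue mice were above all control mice for these 3 genes, as they were for 21.4% of all tested genes.

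With all 12 mice, the class I genes set beside the class II genes had log2 fold changes of the opposite sign after knockdown. Ad-Ctrl replicate 1 was also the highest control for H2-K1 (2152 against 1268 to 1392 TPM) and H2-D1 (1177 against 658 to 802 TPM). For H2-D1 the knockdown mice measured 586 to 858 TPM. The signs of the 10 genes below were not counted without that mouse. Tap1 and Tap2 stayed negative with any mouse left out (-0.80 to -0.50 and -0.74 to -0.52). All 10 (H2-K1, H2-D1, B2m, Tap1, Tap2, Tapbp, Psmb8, Psmb9, Psmb10 and Nlrc5) had negative log2 fold changes in knockdown minus control, with a median of -0.43 beside 0.09 over all genes, and positive ones in rescue minus knockdown, with a median of 0.37 beside 0.09. None passed an adjusted p of 0.05 in limma in the main fit on the deposited scale with all 12 mice. After median-of-ratios scaling 3 of 10 did in knockdown minus control, beside 691 of all 16378 tested genes. At the study's threshold 4 of 10 were lower in the first comparison (2.3% of all genes) and 2 of 10 higher in the second (2.33%). The signs of all 10 in these comparisons were the same after median-of-ratios scaling. In rescue minus control, 5 were higher and 5 lower, with a median of -0.02 beside 0.17, and 0 higher and 10 lower after that scaling.

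Tap1, which with Tap2 forms the peptide transporter that feeds class I, measured 81.2, 87.5, 59.1 and 59.3 TPM in the control mice, 29.7, 49.8, 56.6 and 43.6 TPM in the knockdown mice, and 74.9, 72.0, 79.2 and 65.6 TPM in the rescue mice. Its knockdown mice lay below every mouse of either other group (log2 fold change -0.68 against control, limma adjusted p = 0.0624), as those of 2.06% of all genes did against control and 5.4% against rescue. Tap2, its partner, had a value of -0.63 (limma adjusted p = 0.0574). Both passed the test with all 12 mice after median-of-ratios scaling (Tap1 -0.78 and Tap2 -0.73, limma adjusted p = 0.0347 and 0.0485) and with a filter of at least 5 TPM (limma adjusted p = 0.0472 and 0.0431), and Tap1 passed with quantile normalization (limma adjusted p = 0.0372) and, as did Tap2 and Psmb9, without Ad-shmGULL replicate 3 (limma adjusted p = 0.0279, 0.0276 and 0.0351). Nlrc5 had knockdown mice at 27.3 to 45.4 TPM, below the control mice at 46.8 to 57.8 TPM (log2 fold change -0.42, limma adjusted p = 0.104), and it passed after median-of-ratios scaling (-0.52, limma adjusted p = 0.0401). No class I gene passed in knockdown minus control in the other planned settings with all 12 mice, or with any other single mouse left out. Over all genes, 645 of 10948 passed with the 5 TPM filter, 627 of 16378 with quantile normalization and 1057 without Ad-shmGULL replicate 3.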

How the data were processed

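Liver RNA-Seq values of 12 mice, 4 per group by the sample labels, were analysed. The authors deposited the values as TPM on GENCODE VM24 genes of GRCm38.p6; the submitters' processing notes name fastp 0.23.2, FastQC 0.11.8, HISAT2 2.2.1.0, featureCounts and Subread 2.0. The libraries were strand-specific. TPM keep no depth, so no counting interval or detection limit is given, and precision is the spread between mice.

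Log2(TPM + 1) of the 16378 genes with a mean TPM of at least 1 was fitted in R 4.3.3 with limma 3.58.1 (3 groups, no covariate, mean-variance trend), and p-values were adjusted by Benjamini-Hochberg over all tested genes. Single genes were also compared by exact two-sided permutation (4 against 4, or 4 against 3 without Ad-Ctrl replicate 1, smallest p 0.0286 in either case). The procedure was tested on simulated data. Named genes were the 7 class II genes, the 2 genes of each pathway list with the smallest P in knockdown minus control, and the 10 genes most like the class II mean by Pearson's r. A gene of the list of class II transcription control is not reported here and was left out of that list's counts. Genes and lists were chosen with earlier results of these data known. Same-numbered mice did not deviate together (2 of 12 correlations above 0.1, range -0.244 to 0.154), so no block was used. Nothing says that samples came from separate litters or cages. Promoter sequences came from RefSeq and figures from matplotlib 3.10.9 (Python 3.11.15). The alternatives tried were another pseudocount (0.1), no filter or a mean TPM of at least 5, array weights, a fit without the trend or with just the 2 groups of a comparison, quantile normalization, median-of-ratios scaling, a replicate block and each mouse left out.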

Additional observations from a re-analysis of the deposited data

Results flagged for a closer look

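Ciita in the Ad-Ctrl group held a mouse far from the others. Ad-Ctrl replicate 1 had 9.88 TPM, and the other control mice 4.98, 5.05 and 5.60 TPM. The gap to the nearest mouse, divided by the range of the group, was 0.872, above Dixon's 95% critical value for 4 samples. This was the only one of 36 gene and group combinations past that value, where chance gives about 1 in 20.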

How the results depend on the processing

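With all 12 mice, the adjusted threshold was passed in the planned settings by no class II gene in knockdown minus control or rescue minus knockdown, and by 2 in rescue minus control with array weights (Ciita and H2-DMb1). At the study's threshold, rescue minus control gave 1 gene, but 0 with no filter, with median-of-ratios scaling, with quantile normalization and with the replicate block, and 4 with array weights. Over all 16378 tested genes, array weights in rescue minus control gave 3184 at the adjusted threshold and 1397 at the study's. Leaving out each mouse in turn gave 0 to 3 class II genes at the adjusted threshold in knockdown minus control and in rescue minus control, and 0 to 4 and 0 to 7 at the study's threshold. Among the 27 pathway genes, 1 passed in knockdown minus control with median-of-ratios scaling (Sppl2a), 3 in rescue minus control with only the 2 groups (Nfyb, Nfyc and Rfxank) and 5 with array weights (these, Jak1 and Rfx5), and 0 to 1 when a mouse was left out. Of all 16378 tested genes, 691, 1693 and 3184 passed in the first 3 of these, so the counts are not read as a result about the pathway genes. Chosen after seeing the data, leaving out Ad-Ctrl replicate 1 with median-of-ratios scaling gave 1 class II gene at the adjusted threshold and 4 at the study's in knockdown minus control, 6 at the study's in rescue minus control, and 1 pathway gene, Sppl2a. Of all 16378 tested genes, 799 and 1397 passed in the former comparison, and 1039 passed the study's threshold in the latter. Leaving out Ad-Ctrl replicate 1 and Ad-shmGULL replicate 1 also moved the counts of class II genes at the adjusted and the study's thresholds. They were 5 and 7 in knockdown minus control (972 and 1799 of all 16378 tested genes). In rescue minus control they were 7 and 7 (2077 and 1759 of all tested genes). Of the 27 pathway genes, 2 and 3 passed the adjusted threshold in these comparisons. Mice share only a number, and with the replicate block the count in rescue minus control at the adjusted threshold was 0.

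Scaling moved the median of all genes in rescue minus control from 0.17 to -0.003 (log2), and the calls over all genes from 352 to 11, and array weights gave 3184. In knockdown minus control the 529 calls (399 higher, 130 lower) became 691 (350 and 341) with median-of-ratios scaling and 33 with only the 2 groups. Directions turned where values were near 0. In rescue minus knockdown, H2-Aa was -0.082 with median-of-ratios scaling, -0.0704 with quantile normalization, -0.082 with that scaling and no Ad-Ctrl replicate 1, -0.15 without both replicates 1, and -0.15 to 0.17 with a mouse left out. H2-Eb1 was 0.057 and Cd74 0.0045 with array weights, and with a mouse left out they ran from -0.15 to 0.092 and from -0.22 to 0.084. H2-DMa in knockdown minus control ran from -0.077 to 0.45. In rescue minus control, Socs1 was -0.13, -0.15 and -0.13, and Tap1 -0.16, -0.11 and -0.13 with median-of-ratios scaling, quantile normalization and the former without Ad-Ctrl replicate 1. With a mouse left out they ran from -0.12 to 0.12 and -0.043 to 0.14, and Cd83 in rescue minus knockdown from -0.42 to 0.036. The cause of these changes was not tested.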
